A study of Mus musculus with 17 samples.

Results

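The replication-dependent histone genes were followed in cardiac fibroblasts (CFs) from infarcted mouse hearts from day 1 to day 6 after infarction (days post infarction, dpi). They were chosen by name, as genes of the count table whose annotated symbol begins with Hist1h, Hist2h, Hist3h or Hist4 and that had at least 10 counts in at least 3 libraries. Of 67 such genes in the table, 63 passed, out of 14030 genes that passed the same filter and 31053 genes listed. The 63 genes comprised 5 linker H1, 17 H2A, 16 H2B, 12 H3 and 13 H4 genes. Of these, 52 lie in the Hist1 cluster on chromosome 13, 9 in the Hist2 cluster on chromosome 3, and 1 each in Hist3 on chromosome 11 and Hist4 on chromosome 6. The 4 listed genes that did not pass were Hist1h1t, Hist1h2aa, Hist2h2bb and Hist3h2ba. Of the 63 genes, 42 had at least 10 counts in every library and 5 had that many in fewer than 10 libraries.

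Bulk MARS-seq libraries were made from *Col1α1*-GFP+/CD31−/CD45− cells, sorted from hearts of 8 to 10 week old C57BL/6 mice in which the left anterior descending artery had been ligated. All 17 libraries came from injured hearts, and the days 1, 2, 3, 4, 5 and 6 had 3, 3, 4, 3, 1 and 3 of them. The GFP is driven by the *Col1α1* promoter, so the sort depends on collagen gene activity. MARS-seq primes reverse transcription with poly-dT and counts the 3′ ends of RNAs, so an RNA without a poly-A tail is captured only where poly-dT finds another stretch of A or a tailed form of the RNA.

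Histones package DNA into nucleosomes, in which a tetramer of H3 and H4 binds 2 dimers of H2A and H2B and H1 sits on the linker. The replication-dependent genes are transcribed mainly in S phase, when new DNA must be packaged. Their mRNAs usually end after a conserved stem-loop bound by SLBP and carry no poly-A tail, although some of the genes also give polyadenylated mRNAs in cells that have stopped dividing.

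The sequences at the stem-loop are shown for genes that lead the results, and where poly-dT primed on these RNAs was not tested. For Hist1h1c and Hist1h4i the annotated transcript runs on for 840 and 330 bases after the stem-loop. Each line gives the 14 bases before the stem-loop in lower case and the 16 bases of the stem-loop in capitals, 5′ to 3′, from the annotated transcript (GENCODE vM21, GRCm38).

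Hist1h2ao: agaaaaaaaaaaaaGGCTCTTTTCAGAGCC
Hist2h2aa1: cgagctcctaaaaaGGCTCTTTTCAGAGCC
Hist1h2bk: cgtctagcaccaaaGGCTCTTTTAAGAGCC
Hist1h1c: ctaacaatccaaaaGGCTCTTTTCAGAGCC
Hist1h4i: caatgctacttaaaGGCCCTTTTTAGGGCC

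Hist1h2ao (ENSMUSG00000094248) lies at chr13:21810465-21810944 on the plus strand, Hist1h2bk (ENSMUSG00000062727) at chr13:22035870-22036345 on the plus strand and Hist1h4i (ENSMUSG00000060639) at chr13:22040636-22041362 on the minus strand, all within the Hist1 cluster. Hist1h1c (ENSMUSG00000036181) lies there too, at chr13:23738808-23740367 on the plus strand, and Hist2h2aa1 (ENSMUSG00000064220) at chr3:96245497-96246082 on the plus strand in Hist2. The stem-loops shown lie in the 3′ UTR of each gene.

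A stem-loop of 16 bases was found in the annotated transcripts of 44 of the 63 genes, namely 3 of 5 H1, 11 of 17 H2A, 9 of 16 H2B, 9 of 12 H3 and 12 of 13 H4 genes. The form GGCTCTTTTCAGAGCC was the most frequent among H1, H2A, H2B and H3 genes, with 3, 10, 7 and 5 genes, and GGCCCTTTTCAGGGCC among H4 genes, with 7. Hist1h2ao and Hist1h2ap, the H2A genes with the highest counts, had a run of 12 A directly before the stem-loop. In the other genes with a stem-loop that run had 0 to 7 A, with a median of 3 over all 44. Whether reads started at this run was not tested.

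A poly-A signal (AATAAA or ATTAAA) within the last 40 bases of the annotated transcript was found for 15 genes, 6 of them H4 and 5 H2B. The signal is shown in capitals for Hist1h1c and Hist1h4i, the H1 and H4 genes with the highest counts, and for Hist3h2a, whose annotated transcript runs far beyond the stem-loop.

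Hist1h1c: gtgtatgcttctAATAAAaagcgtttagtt
Hist1h4i: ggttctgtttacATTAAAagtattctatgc
Hist3h2a: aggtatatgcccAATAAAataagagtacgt

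The coding parts of these genes are so alike that a read can fit several of them. Of the 63 genes, 58 shared at least 1 word of 68 bases, the read length, with another of them, including all 17 H2A and all 12 H3 genes. The share of words found in a single listed gene had a median of 26.8% over the H2A genes, from 0% for Hist2h2aa1 to 89.8% for Hist1h2ac. The rows of Hist1h2ao and Hist1h2ap differed by at most 2.81% in any library, those of Hist1h2bq and Hist1h2br by at most 6 counts, and those of Hist2h2aa1 and Hist2h2aa2 by at most 5 counts. Such rows hold largely the same reads, so they are not independent measurements, sums over a class count some reads more than once, and the number of genes called overstates the number of separate observations.

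Library totals ranged from 8021815 to 22029938 counts, and the histone rows held 0.0549% to 0.124% of them at 1 and 2 dpi and 0.134% to 1.21% from 3 dpi on. The library 3 dpi replicate 2 stood apart, with 1.21% against 0.354% to 0.428% in the other 3 dpi libraries. The class levels at 3 dpi, most counts of histone genes called and the genes most affected are given with and without it. Other counts, such as those for gene pairs and other gene lists, are given with it only. The labels name the 4 libraries of 3 dpi in another form than those of all other days. Whether they were processed apart is not stated, and such a difference could not be told apart from the day. Fibroblast markers, *Col1a1* among them, summed over 7 genes to 12280 to 18020 CPM at 1 dpi and 21340 to 37950 CPM in all later libraries, where CPM are counts scaled to the normalized library size. Of these 7 genes 3 rose and 2 fell at 3 to 5 dpi over 1 to 2 dpi (edgeR), where 7.48% of all genes were called and 5.25% rose. These shares hold for the marker counts of this comparison that follow too. Leukocyte markers were higher at 3 dpi (37.5 to 163 CPM summed over 8 genes) than at 1 and 2 dpi (7.56 to 31.4 CPM), 1 of the 6 tested was called (Lyz2), and Cd3e was at 0 in all libraries. Of 6 endothelial markers tested 0 were called between 3 to 5 and 1 to 2 dpi by edgeR (summed level 19.2 to 78.4 CPM). At 3 over 2 dpi, however, 1 of 6 endothelial and 1 of 6 leukocyte markers rose, beside 1.82% of all genes. The median log2 fold changes were 2.23 and 4.48. At 4 over 3 dpi 0 of either list were called, beside 2.71% of all genes, with medians of −2.04 and −2.4. Mural markers summed over 5 genes to 20.8 to 54.0 CPM at 1 and 2 dpi, 47.7 to 109 CPM at 3 and 4 dpi, 161 CPM at 5 dpi and 85.2 to 96.6 CPM at 6 dpi, and 2 of the 5 rose at 3 to 5 over 1 to 2 dpi (Rgs5 and Cspg4). Ptprc, which encodes CD45, was at 0, 0, 37 and 20 counts in 3 dpi replicates 1 to 4 and at 20 counts at 5 dpi. Erythroid markers reached 309 to 2393 CPM at 4 dpi and cardiomyocyte markers 75.2 to 176 CPM at 6 dpi. The 4 Y-linked genes summed to 42.8 to 71.7 CPM at 2, 3 and 5 dpi and to at most 0.769 CPM at 4 and 6 dpi. At 1 dpi they summed to 10.6 CPM in replicate 1, which had 1670 Xist counts, and to 59.98 and 59.0 CPM in replicates 2 and 3, with 461 and 63. Both the 1 to 2 dpi and the 3 to 5 dpi libraries thus differ in sex-linked RNA among themselves, and sex and day cannot be told apart between 3 and 4 dpi or between the 3 or 5 dpi and 6 dpi libraries. The part of these markers in the histone results was not tested.

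**Figure D1:**
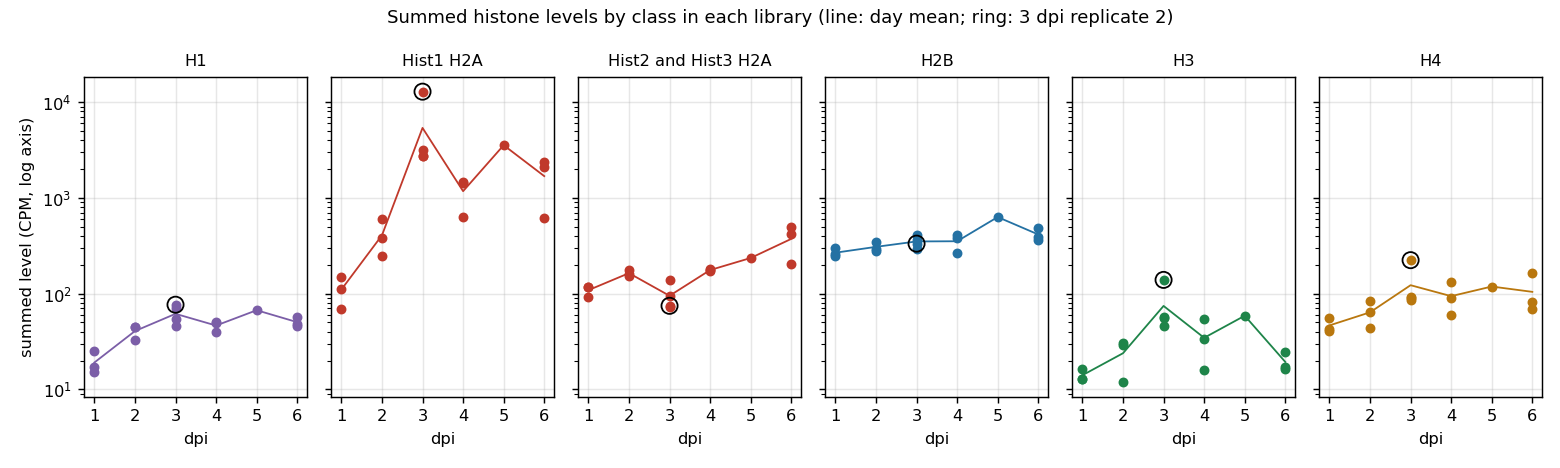
Summed CPM of the genes of each class (log axis) against dpi, with 1 point per library, a line through the day means and a ring around 3 dpi replicate 2. The Hist1 H2A genes spanned 69.5 to 12890 CPM, while the H2B sum stayed between 247 and 631 CPM.

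Which classes changed over the 6 days was asked from the summed level of each class. H2A had the widest span. Its sum was 219 ± 53.2 CPM (SD, n = 3) at 1 dpi, 570 ± 186 (n = 3) at 2 dpi, 5484 ± 4993 (n = 4) at 3 dpi, 1352 ± 477 (n = 3) at 4 dpi, 3791 in the single 5 dpi library and 2063 ± 1076 (n = 3) at 6 dpi. Without 3 dpi replicate 2, at 12970 CPM, the 3 dpi libraries were at 2990 ± 257 CPM (n = 3). The lowest library from 3 dpi on (801.6 CPM) lay above the highest at 1 and 2 dpi (773.1 CPM). H2B, in contrast, stood at 268 ± 25.6 CPM at 1 dpi and 351 ± 49.8 CPM at 3 dpi (n = 3 and 4, and 357 ± 59.2 CPM at 3 dpi without replicate 2), and its libraries overlapped. H3 stood at 14.04 ± 2.10 CPM at 1 dpi, at 74.4 ± 43.5 CPM at 3 dpi (52.8 ± 6.02 CPM without replicate 2) and at 19.3 ± 4.62 CPM at 6 dpi. H4 was at 46.5 ± 8.46 CPM at 1 dpi, 122 ± 67.5 CPM at 3 dpi and 104 ± 51.8 CPM at 6 dpi. Without 3 dpi replicate 2 it was at 88.7 ± 3.22 CPM at 3 dpi, below its mean at 6 dpi. H1 was at 19.1 ± 5.24, 61.5 ± 14.3 and 50.3 ± 5.84 CPM on the same days, and at 56.5 ± 12.4 CPM at 3 dpi without replicate 2. These sums are a description without a test. In bulk libraries a change in the share of cells with an RNA and a change in the RNA per cell cannot be told apart.

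The makeup of the histone counts changed with the days. At 1 dpi, H2B held 47.6% ± 7.38 and H2A 38.4% ± 6.95 of all histone counts (SD, n = 3). At 3 dpi, H2A held 86.9% ± 5.23 and H2B 8.16% ± 4.02 (n = 4), or 84.3% ± 1.78 and 10.07% ± 1.54 without replicate 2. At 6 dpi the shares were 74.5% ± 12.1 for H2A and 18.3% ± 9.56 for H2B (n = 3). H4 held 8.24% ± 1.55 of histone counts at 1 dpi and 2.29% ± 0.451 at 3 dpi (2.51% ± 0.120 without replicate 2), while its own summed level was higher at 3 dpi, as given above. Some reads count in several rows, and poly-dT need not capture each RNA equally. These are thus shares of counts and not of molecules.

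Over the whole time course, 35 of the 63 genes were called (edgeR quasi-likelihood F-test, Benjamini-Hochberg adjusted p under 0.05 over all 14030 genes), 55.6% against 15.0% of all genes tested. The calls fell on 15 of 17 H2A, 12 of 16 H2B, 5 of 12 H3, 2 of 5 H1 and 1 of 13 H4 genes. Without 3 dpi replicate 2, 37 genes were called, which included all 35.

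**Figure D2:**
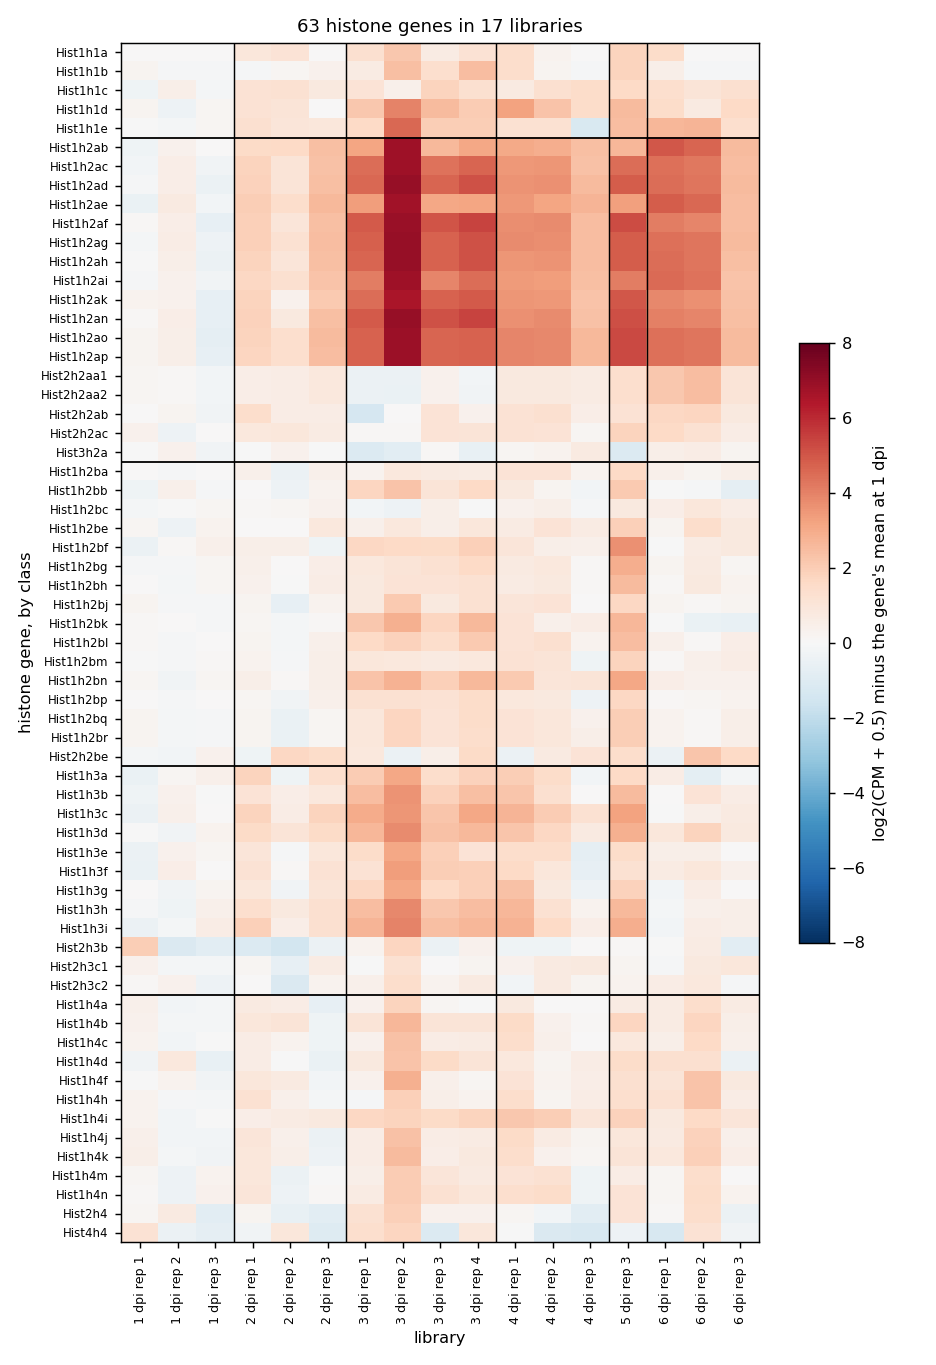
Each row is 1 of the 63 histone genes, ordered by class, and each column 1 of the 17 libraries. The colour gives log2(CPM + 0.5) minus the gene's mean at 1 dpi. The 12 Hist1 H2A rows are red from 3 dpi on, deepest in 3 dpi replicate 2, while among the Hist2 H2A rows below them Hist2h2aa1 and Hist2h2aa2 are deepest in 6 dpi replicates 1 and 2 and Hist2h2ac at 5 dpi.

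The study followed CFs day by day to find when their states appear, and the 3, 4 and 5 dpi libraries were compared with those of 1 and 2 dpi. In this comparison 36 of the 63 histone genes rose and none fell, 57.1% called against 7.48% of all genes tested, of which 5.25% rose. The median log2 fold change of the 63 genes was 1.39, beside 0 over all genes. By class, 12 of 17 H2A, 13 of 16 H2B, 6 of 12 H3, 4 of 5 H1 and 1 of 13 H4 genes rose. Of the 4 H1 genes, Hist1h1b passed the filter only through libraries of 3 to 5 dpi, so its call does not support a rise. With 3 dpi replicate 2 left out, 35 were called, of which 34 were among the 36. By class these 35 were 12 H2A, 14 H2B, 5 H3, 3 H1 and 1 H4 genes. With the single 5 dpi library left out, 25 were called, and with the 4 libraries of 3 dpi left out, 28, in both cases all among the 36.

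H2A split by gene cluster. All 12 Hist1 H2A genes rose, by 2.70 to 3.92 on the log2 scale with a median of 3.72, while 0 of the 5 Hist2 and Hist3 H2A genes were called (2 of 5 at an unadjusted p under 0.05). For 11 of the 12, every library of 3 to 5 dpi lay above every library of 1 to 2 dpi, which held for 1.70% of all genes tested. The exception was Hist1h2an. Counts at an unadjusted p, here and below, are given without the share of all genes at that threshold.

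Hist1h2ao, the histone gene with the highest mean CPM, was at 30.1, 36.3 and 15.45 CPM at 1 dpi and at 88.2, 65.6 and 148 CPM at 2 dpi. It then stood at 692, 3045, 672 and 703 CPM at 3 dpi, 387, 373 and 160 CPM at 4 dpi, 1011 CPM at 5 dpi and 566.5, 515 and 154 CPM at 6 dpi. The 3 dpi libraries were the highest together with that of 5 dpi, and replicate 3 of both 4 and 6 dpi came close to the highest 2 dpi library. Its log2 fold change over 1 to 2 dpi was 3.81 ± 0.45 (SE, edgeR adjusted p = 1.7e-05) and 3.51 ± 0.33 without 3 dpi replicate 2. Hist1h2ap, which holds mostly the same reads, gave 3.80 ± 0.45.

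Hist1h2ao took 9.56% to 13.6% of the H2A counts at 1 dpi, 16.1% to 19.2% at 2 dpi and 21.4% to 24.6% at 3 dpi. It took 26.7% in the 5 dpi library and 18.7% to 20.5% at 6 dpi. At 4 dpi it took 19.95% to 23.6%. Of the Hist1 H2A counts alone it took 22.2% to 27.2% at 1 dpi, 23.3% to 26.6% at 2 dpi, 22.02% to 25.2% at 3 dpi, 25.4% to 26.5% at 4 dpi, 28.4% at 5 dpi and 24.1% to 24.9% at 6 dpi. Within Hist1 its share at 2, 3, 4 and 6 dpi thus lay within the range of 1 dpi or, for 1 library of 3 dpi, just below it, and the 5 dpi library lay above it. Hist1h2an and Hist1h2af, which rose by 3.92 ± 0.43 and 3.92 ± 0.42, have no run over 4 A, but their annotated transcripts of 393 and 399 bases hold no stem-loop, so what lies before it was not read for them.

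Hist1h2an was at 2.79 to 7.17 CPM at 1 dpi, 8.34 to 26.8 CPM at 2 dpi, 157 to 637 CPM at 3 dpi, 26.3 to 69.6 CPM at 4 dpi, 185.5 CPM at 5 dpi and 27.3 to 85.8 CPM at 6 dpi. Its lowest 4 dpi library lay just below its highest 2 dpi library. Other Hist1 H2A genes rose as well, with Hist1h2ac at 3.50 ± 0.45, Hist1h2ad at 3.70 ± 0.45, Hist1h2ag at 3.71 ± 0.44, Hist1h2ah at 3.73 ± 0.45, Hist1h2ai at 3.37 ± 0.49 and Hist1h2ak at 3.79 ± 0.43 on the log2 scale, all with an edgeR adjusted p of at most 0.00013. These genes encode nearly the same H2A protein and share reads, so these estimates are not independent. Their later courses were not compared by a test, and neither Hist1h2ai nor Hist1h2an was called at 3 to 5 dpi over 6 dpi. Hist1h2ai was at 68.3 to 509 CPM at 3 dpi and 21.9 to 105 CPM at 6 dpi, so that these days overlapped, whereas every 3 dpi library of Hist1h2an lay above its 6 dpi libraries.

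Hist1h2ab and Hist1h2ae, with the smallest rises of the 12, are described here after their values were seen. Hist1h2ab was at 1.52 to 2.72 CPM at 1 dpi and 6.80 to 12.8 CPM at 2 dpi. At 3 dpi it stood at 281.9 CPM in replicate 2 and 14.8 to 22.2 CPM in the other libraries, and at 6 dpi at 77.8, 64.5 and 13.99 CPM. Apart from 3 dpi replicate 2, its highest libraries were thus those of 6 dpi replicates 1 and 2. Hist1h2ai went partly the same way, at 68.3 to 100.1 CPM in the other 3 dpi libraries and 21.9 to 104.9 CPM at 6 dpi. The difference between these genes was not tested. Hist1h2ab rose by 2.70 ± 0.62 and Hist1h2ae by 2.85 ± 0.59 at 3 to 5 dpi over 1 to 2 dpi (edgeR adjusted p = 0.0087 and 0.0041). Without 3 dpi replicate 2, in which Hist1h2ab was 14.5 and Hist1h2ae 11.6 times the mean of the other 3 dpi libraries, the rises were 1.99 ± 0.33 and 2.22 ± 0.34 (adjusted p = 0.00042 and 0.0002).

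Of the 5 H2A genes outside Hist1, 4 had a positive estimate over 1 to 2 dpi and 1 a negative one, between −0.49 and 0.74, and their difference from the Hist1 genes was not tested. Hist2h2ac, at 0.74 ± 0.28 (edgeR adjusted p = 0.12), was at 3.30 to 5.82 CPM at 1 dpi, 4.79 to 10.04 CPM at 3 dpi, 16.45 CPM at 5 dpi and 6.84 to 14.3 CPM at 6 dpi. Hist2h2aa1 was at 35.2 to 45.7 CPM at 1 dpi, 59.6 to 74.8 CPM at 2 dpi, 29.0 to 52.3 CPM at 3 dpi, 65.5 to 71.5 CPM at 4 dpi, 103 CPM at 5 dpi and 184, 227 and 85.8 CPM at 6 dpi. It was thus highest at 6 dpi, in replicates 1 and 2 of that day, and at 3 dpi lay below every 2 dpi library. Its log2 fold change at 3 to 5 dpi was 0.29 ± 0.21 over 1 to 2 dpi (edgeR adjusted p = 0.47) and −1.38 ± 0.26 over 6 dpi (adjusted p = 0.0032). Hist2h2aa2 holds the same reads and gave the same values. Hist3h2a, with a poly-A signal at its annotated 3′ end, was at 16.1 to 24.5 CPM at 1 dpi, 18.8 to 25.45 CPM at 2 dpi, 8.96 to 20.7 CPM at 3 dpi, 21.6 to 33.1 CPM at 4 dpi, 8.96 CPM at 5 dpi and 22.7 to 29.6 CPM at 6 dpi. The mean over 3 to 5 dpi was lower than 6 dpi by a log2 fold change of −0.86 ± 0.26 (edgeR adjusted p = 0.039), with the 3 and 5 dpi libraries below those of 6 dpi and the 4 dpi libraries overlapping them.

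**Figure D3:**
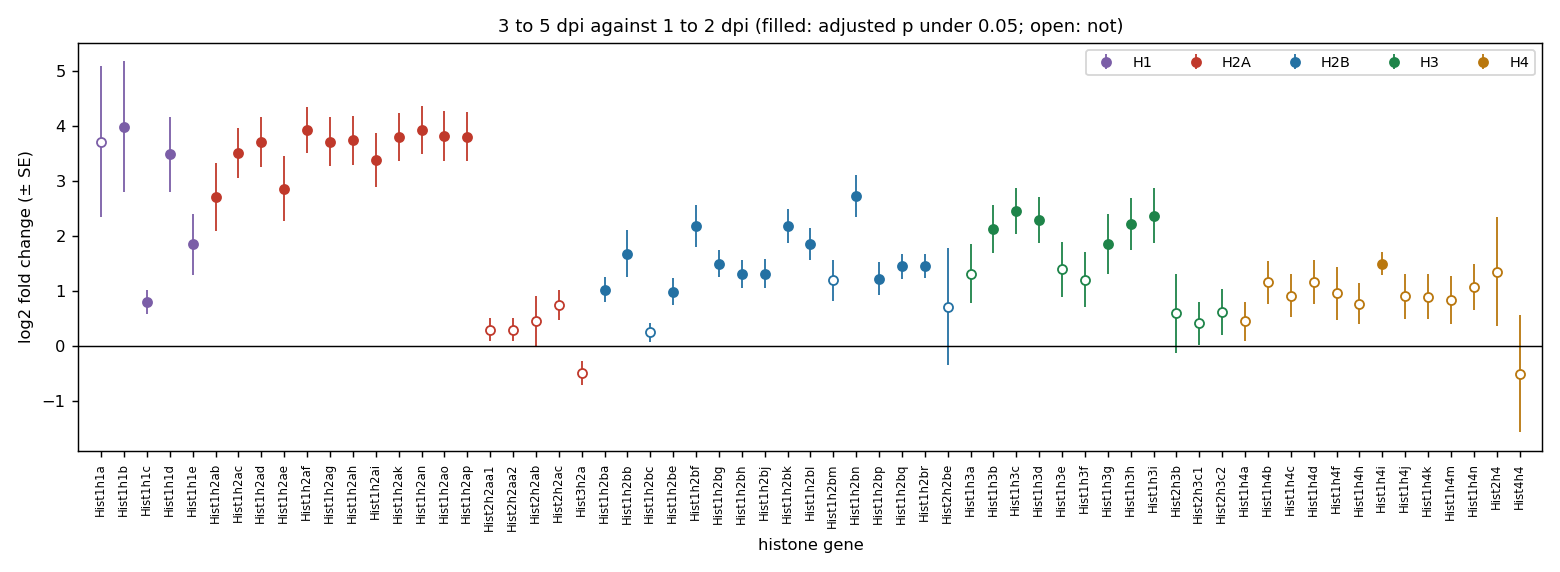
log2 fold change of each of the 63 histone genes at 3 to 5 dpi over 1 to 2 dpi, with its standard error, ordered by class. Filled points have an adjusted p under 0.05. The Hist1 H2A genes lie between 2.70 and 3.92 and the H4 genes between −0.51 and 1.49.

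Among H2B genes, which pair with H2A in the nucleosome, 13 of 16 rose, and Hist1h2bc, the row with the highest counts, was 1 of the 3 that were not called, with Hist1h2bm (1.19 ± 0.37, edgeR adjusted p = 0.052) and Hist2h2be (0.71 ± 1.06, adjusted p = 0.75). All 16 estimates were positive. Hist1h2bc was at 192 to 243 CPM at 1 dpi, 234 to 277 CPM at 2 dpi, 161 to 300 CPM at 3 dpi, 203.5 to 301.5 CPM at 4 dpi, 373 CPM at 5 dpi and 306 to 410 CPM at 6 dpi. Its libraries overlapped and its log2 fold change at 3 to 5 dpi was 0.24 ± 0.18 (edgeR adjusted p = 0.48). It held most of the H2B counts, and without it the H2B sum was 51.4 ± 4.78 CPM at 1 dpi, 135 ± 30.4 CPM at 3 dpi and 68.3 ± 6.76 CPM at 6 dpi (n = 3, 4 and 3), with 123 ± 22.7 CPM at 3 dpi without replicate 2. The annotated transcript of Hist1h2bc is spliced and holds no stem-loop.

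The 13 H2B genes that rose did so by 0.98 (Hist1h2be) to 2.72 (Hist1h2bn). Hist1h2bk, at 1.42 to 1.65 CPM at 1 dpi and 1.33 to 1.82 CPM at 2 dpi, reached 8.60, 14.6, 6.17 and 11.7 CPM at 3 dpi. It was at 2.25 to 3.96 CPM at 4 dpi, 12.5 CPM at 5 dpi and 0.845 to 1.55 CPM at 6 dpi. Each library of 3 to 5 dpi lay above those of 1, 2 and 6 dpi, and the log2 fold change was 2.18 ± 0.31 (edgeR adjusted p = 0.00012). Hist1h2bn rose by 2.72 ± 0.39, Hist1h2bg by 1.49 ± 0.24 and Hist1h2br by 1.45 ± 0.22. In 3 dpi replicate 2, 7 of the 16 H2B genes were higher than in the other 3 dpi libraries, Hist1h2bj the most (31.2 against 12.2 to 16.7 CPM), as were 3 of 5 H1, 12 of 17 H2A, 12 of 12 H3 and 13 of 13 H4 genes, beside 35.6% of all genes tested.

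H3 genes were low throughout, and those that rose all lie in Hist1. Hist1h3b, the H3 row with the highest counts, rose by 2.12 ± 0.43 and Hist1h3h by 2.21 ± 0.47 on the log2 scale (edgeR adjusted p = 0.0038 and 0.0049). Hist1h3i had 2 to 22 counts per library at 1 dpi, 19 to 61 at 2 dpi, 55 to 192 at 3 dpi, 9 to 99 at 4 dpi, 69 at 5 dpi and 6 to 12 at 6 dpi. Its 4 dpi libraries ranged widely, and its log2 fold change was 2.36 ± 0.50 (adjusted p = 0.0049). Hist1h3c, chosen after its values were seen, was at 4.16 to 11.4 CPM at 3 dpi, 1.92 to 6.10 CPM at 4 dpi, 9.06 CPM at 5 dpi and 0.517 to 1.15 CPM at 6 dpi, so that every 3 to 5 dpi library lay above those of 6 dpi. Of the 3 Hist2 H3 genes, with log2 fold changes of 0.41 to 0.61, 0 were called and 0 had an unadjusted p under 0.05.

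H4 was the class with the fewest calls over the time course and at 3 to 5 dpi over 1 to 2 dpi. Hist1h4i, the H4 gene with the highest counts, was at 7.83 to 11.1 CPM at 1 dpi, 13.4 to 16.4 CPM at 2 dpi, 27.5 to 33.7 CPM at 3 dpi, 18.4 to 43.3 CPM at 4 dpi, 34.5 CPM at 5 dpi and 16.1 to 28.8 CPM at 6 dpi. Every library of 3 to 5 dpi lay above those of 1 to 2 dpi, and the gene rose by 1.49 ± 0.21 (edgeR adjusted p = 0.00013). Hist1h4h, the next by counts, had a log2 fold change of 0.76 ± 0.37 (adjusted p = 0.25). Of the 13 H4 genes 12 had a positive fold change and 7 an unadjusted p under 0.05, with no share of all genes beside the 7. The 1 call of 13 does not show that the other H4 genes stayed level, and these counts do not show that they rose.

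The H1 genes encode linker histones and share few reads with each other. Hist1h1c, with by far the highest counts, was at 13.55 to 24.0 CPM at 1 dpi, 29.55 to 40.7 CPM at 2 dpi, 23.2 to 59.6 CPM at 3 dpi, 28.6 to 48.9 CPM at 4 dpi, 52.7 CPM at 5 dpi and 35.0 to 44.5 CPM at 6 dpi. Its libraries of 2 and 3 dpi overlapped, and it rose by 0.79 ± 0.22 over 1 to 2 dpi (edgeR adjusted p = 0.032). That call was kept in 12 of 23 alternatives, with an adjusted p of 0.0051 to 0.097, and lost among others without the single 5 dpi library (0.67, adjusted p = 0.073). Hist1h1e stood at 39.7 CPM in 3 dpi replicate 2 and at 4.52 to 5.96 CPM in the other 3 dpi libraries. It rose by 1.84 ± 0.55 with that library and by 1.39 ± 0.43 without it (adjusted p = 0.046 and 0.043). Its call was kept in 9 of 22 alternatives, with an adjusted p of 1.1e-05 to 0.21, the highest without the 3 dpi libraries. Hist1h1b had 6 counts in all over the 6 libraries of 1 and 2 dpi and 97 over the 8 libraries of 3 to 5 dpi. Its log2 fold change of 3.98 ± 1.19 (edgeR adjusted p = 0.046) rests on these few counts, and without 3 dpi replicate 2 it was 3.88 ± 1.26 (adjusted p = 0.051). Hist1h1b had at least 10 counts only in libraries of 3 to 5 dpi, so it passed the filter through the days where it was high. Its call is therefore not evidence of a rise. Hist1h1d had the lowest adjusted p of the class (edgeR, 0.0025) and a log2 fold change of 3.48, the class median. It was at 0 to 0.253 CPM at 1 dpi, 0.173 to 0.964 CPM at 2 dpi, 2.13 to 9.58 CPM at 3 dpi and 1.28 to 5.58 CPM at 4 dpi. It stood at 3.33 CPM at 5 dpi and 0.597 to 1.46 CPM at 6 dpi. Each library of 3 to 5 dpi lay above those of 1 and 2 dpi, though its counts at 1 dpi were only 2, 0 and 5.

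Against 6 dpi, 17 of the 63 genes were called, 27.0% against 11.5% of all genes tested, 14 of them higher and 3 lower at 3 to 5 dpi, beside 5.29% higher and 6.25% lower of all genes. The higher calls all fell on H2B and H3. Of the H2B genes 10 of 16 were higher at 3 to 5 dpi, with Hist1h2bk at 2.68 ± 0.43, Hist1h2bn at 2.35 ± 0.51 and Hist1h2br at 1.15 ± 0.27 on the log2 scale. Of the H3 genes 4 of 12 were higher, led by Hist1h3i at 2.91 ± 0.69 (edgeR adjusted p = 0.012). Of the 12 Hist1 H2A genes 0 were called and 3 had an unadjusted p under 0.05, and their libraries overlapped. The 3 genes that were lower were Hist2h2aa1, Hist2h2aa2 and Hist3h2a. Without 3 dpi replicate 2, 19 genes were called, the 17 and 2 more, Hist1h2ab and Hist1h2ae, which were then lower at 3 to 5 dpi (−1.57 ± 0.37 and −1.11 ± 0.38, edgeR adjusted p = 0.0055 and 0.045). The count depended on single 6 dpi libraries, with 5 genes called without 6 dpi replicate 1 and 5 without replicate 2. In these 2 libraries the Hist1 H2A sum was 2352 and 2096 CPM, against 620 CPM in replicate 3.

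From 1 to 2 dpi 0 histone genes were called (edgeR, 0.178% of all genes called), although the Hist1 H2A genes had log2 fold changes of 1.62 to 2.07. An unadjusted p under 0.05 was reached by 24 histone genes, with no share of all genes beside that count. DESeq2 called 0 too, while 12 were called by edgeR with every gene of at least 1 count and 9 with only the libraries of these days. From 2 to 3 dpi 19 genes rose, 30.2% against 2.94% of all genes called, 1.82% upward and 1.12% downward, namely all 12 Hist1 H2A genes, 6 H2B genes and Hist1h4i. The Hist1h4i call was kept in 12 of 21 alternatives, with an adjusted p of 0.0083 to 0.17 (edgeR or DESeq2). Every 3 dpi library of these 19 genes lay above every 2 dpi library, which held for 9.70% of all genes tested, and genes called in the same comparison are likely to be so separated. The largest rise was that of Hist1h2an, 4.06 ± 0.59, and 3.38 ± 0.47 without 3 dpi replicate 2 (adjusted p = 0.0012). Without that library 16 genes were called, all among the 19, and without 2 dpi replicate 2, 9 were.

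From 3 to 4 dpi 8 genes fell, 12.7% against 2.71% of all genes called, 1.08% downward and 1.63% upward. They were 7 Hist1 H2A genes and Hist1h2bk. Hist1h2an had a log2 fold change of −2.47 ± 0.55 (edgeR adjusted p = 0.018), and −1.79 ± 0.44 without 3 dpi replicate 2 (adjusted p = 0.024). Without that library 5 genes were called. The count also moved with the other libraries, to 14 without 3 dpi replicate 3, 13 without 6 dpi replicate 3, 1 without 4 dpi replicate 1 and 0 without either of the other 4 dpi libraries. As given above, the 3 and 4 dpi libraries also differ in sex-linked RNA. From 4 to 6 dpi 0 genes were called by edgeR (0.513% of all genes called). While 10 had an unadjusted p under 0.05, no share of all genes stands beside that count. DESeq2 called 3. The edgeR count was 4 without 3 dpi replicate 2, 1 without 4 dpi replicate 3 and 3 without 6 dpi replicate 3.

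H2A and H2B genes often stand head to head. Within the clusters 11 such pairs with divergent start sites at most 1000 bases apart were found, 176 to 302 bases apart, so that each pair shares 1 stretch of promoter. At 3 to 5 dpi over 1 to 2 dpi, 10 of the 11 H2A partners and 9 of the 11 H2B partners rose, where 5.25% of all genes rose, and the H2A estimate was the larger in all 11. Hist1h2ac rose by 3.50 beside an estimate of 0.24 for Hist1h2bc across 251 bases. Hist1h2ah rose by 3.73 beside 2.18 for Hist1h2bk across 302 bases, and Hist1h2ak by 3.79 beside 2.72 for Hist1h2bn. In the Hist2 pair, Hist2h2ac and Hist2h2be, the estimates were 0.74 and 0.71 and neither was called. The difference between partners was not tested, and the H2A partners share reads with each other.

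**Figure D4:**
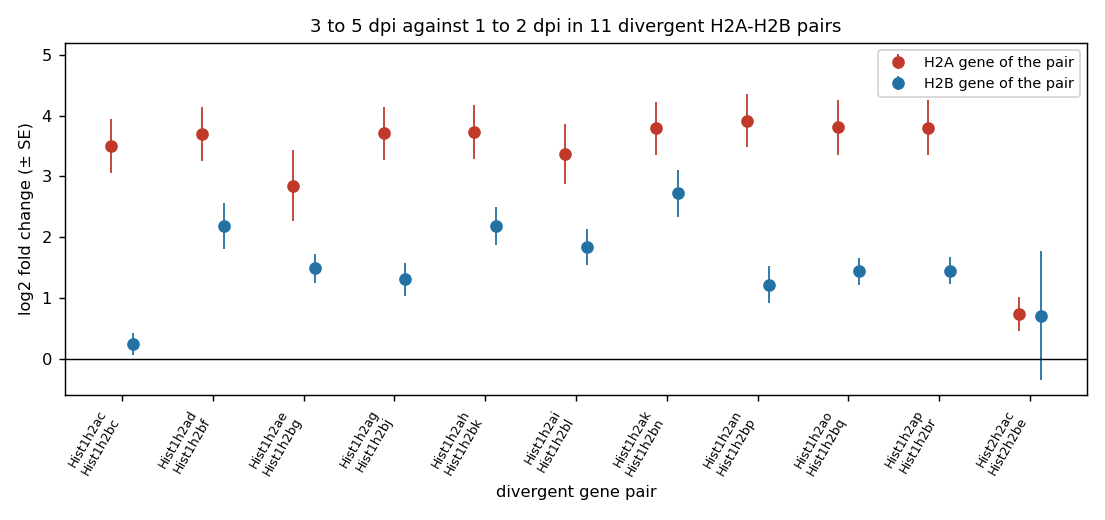
log2 fold change with standard error at 3 to 5 dpi over 1 to 2 dpi for the H2A (red) and H2B (blue) gene of each of 11 divergent pairs. In the 10 Hist1 pairs the H2A gene lies between 2.85 and 3.92 and the H2B gene between 0.24 and 2.72.

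RefSeq promoter windows (GRCm38.p6, 250 bases before to 50 after the start) were matched for 58 of the 63 genes, as 59 windows. They were searched on both strands for the octamer ATTTGCAT, for TATAAA and for CCAAT, none of which contains another. The octamer, known from H2B promoters, was in 6 of 17 H2A and 6 of 15 H2B windows and in 0 of the H1, H3 and H4 windows, against 1.74% of all promoter windows. CCAAT was in all H1, H2A, H2B and H3 windows and in 3 of the 12 H4 windows, against 37.4% of all. TATAAA was in 4 of 5 H1, 10 of 17 H2A, 7 of 15 H2B, 4 of 10 H3 and 8 of 12 H4 windows, against 13.6% of all. Since a divergent pair shares its promoter stretch, the H2A and H2B windows are not independent. A match describes these letters only. The windows of Hist1h2bk (chr13:22035571-22035870, plus strand), which rose and fell back, and of Hist1h4i (chr13:22041313-22041612, minus strand), the H4 gene that rose, are shown with matches on either strand in capitals.

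Hist1h2bk: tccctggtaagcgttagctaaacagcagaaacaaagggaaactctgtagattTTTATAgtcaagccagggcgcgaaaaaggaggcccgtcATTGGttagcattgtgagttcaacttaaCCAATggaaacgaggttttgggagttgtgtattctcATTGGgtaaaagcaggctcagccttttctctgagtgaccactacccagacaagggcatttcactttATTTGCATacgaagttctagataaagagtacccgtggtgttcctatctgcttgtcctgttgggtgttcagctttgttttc
Hist1h4i: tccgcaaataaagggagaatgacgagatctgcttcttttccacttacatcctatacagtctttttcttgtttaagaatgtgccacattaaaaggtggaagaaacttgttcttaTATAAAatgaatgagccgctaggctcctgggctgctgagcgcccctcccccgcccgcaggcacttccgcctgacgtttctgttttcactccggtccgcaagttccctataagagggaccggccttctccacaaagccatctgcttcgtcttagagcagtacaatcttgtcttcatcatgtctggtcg

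Genes that work with the histones were counted as well. Of 25 DNA replication genes 9 rose and 0 fell at 3 to 5 dpi over 1 to 2 dpi, where 5.25% of all genes rose, and the median of the 25 was 0.81 on the log2 scale. Tyms, which makes thymidylate, rose by 1.48 ± 0.22, Rrm1, a subunit of ribonucleotide reductase, by 1.27 ± 0.19 and Tk1, thymidine kinase, by 1.90 ± 0.39. Of 9 cyclins, kinases and E2F genes of the G1/S passage, with Mki67, 5 rose, including Mki67 by 2.94 ± 0.30, Cdk1 by 2.74 ± 0.32 and Ccna2 by 2.43 ± 0.34. Of 16 histone chaperones 2 rose, Chaf1b, a subunit of the CAF-1 complex that deposits H3 and H4 at replication forks, by 1.64 ± 0.37 and Asf1b by 1.57 ± 0.38. Against 6 dpi, 12 of the 25 replication genes, 4 of the 9 cyclins and kinases and 4 of the 16 chaperones were higher at 3 to 5 dpi, where 5.29% of all genes were.

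Of 11 replacement histones, whose mRNAs are polyadenylated and made outside S phase too, 4 rose at 3 to 5 dpi over 1 to 2 dpi, where 5.25% of all genes rose. Cenpa, the centromeric H3, rose by 2.96 ± 0.25, H2afz by 0.96 ± 0.17 and H2afy2 by 1.17 ± 0.21. Their sum was 2026 to 2290 CPM at 1 dpi and 3122 to 4087 CPM at 3 dpi, a far smaller span than that of the Hist1 H2A genes.

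Of 20 genes of histone mRNA 3′ end processing and decay 0 were called at 3 to 5 dpi over 1 to 2 dpi by edgeR (1 at an unadjusted p under 0.05, Srrt), against 7.48% of all genes, and their median was −0.03 on the log2 scale. Over 6 dpi 2 of the 20 were higher and 1 lower, against 5.29% higher and 6.25% lower of all genes. Slbp, which binds the stem-loop, was at 28.8 to 39.25 CPM at 1 dpi, 22.2 to 40.9 CPM at 2 dpi, 32.8 to 59.5 CPM at 3 dpi, 26.95 to 40.2 CPM at 4 dpi, 27.1 CPM at 5 dpi and 14.7 to 22.5 CPM at 6 dpi. It was lowest at 6 dpi, with a log2 fold change of 0.20 ± 0.20 at 3 to 5 dpi over 1 to 2 dpi (edgeR adjusted p = 0.63) and 0.91 ± 0.26 over 6 dpi (adjusted p = 0.030).

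**Figure D5:**
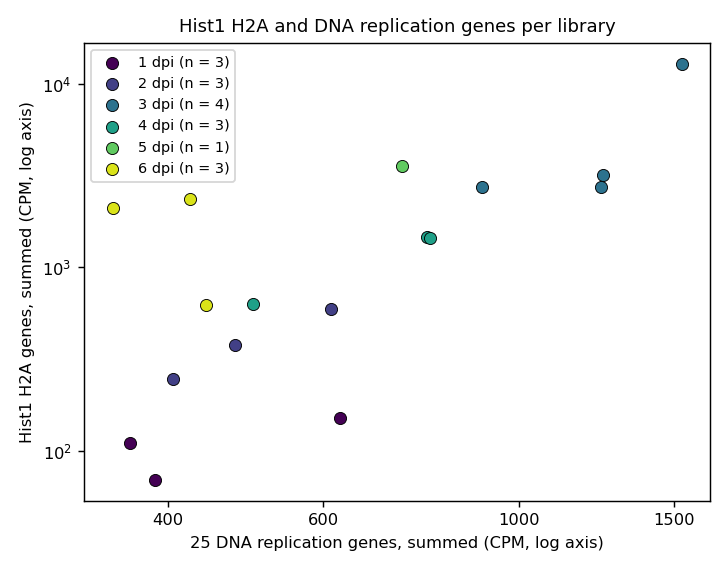
Summed CPM of the Hist1 H2A genes against that of 25 DNA replication genes, both on log axes, with 1 point per library coloured by dpi. The 6 dpi libraries share the low replication sums of 1 dpi (346 to 442 CPM against 363 to 627 CPM) but lie higher in Hist1 H2A.

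The Hist1 H2A and replication sums were set beside each other in each library. At 1 dpi the replication sum was 363 to 627 CPM and the Hist1 H2A sum 0.180 to 0.305 times as large, and at 2 dpi the ratio was 0.609 to 0.972. At 3 dpi the replication sum was 908 to 1530 CPM and the Hist1 H2A sum 2.21 to 8.43 times as large. The ratio was lower at 4 dpi, 1.26 to 1.86, and 4.83 in the 5 dpi library. At 6 dpi the replication sum was 346 to 442 CPM, within or near the range of 1 dpi, while the Hist1 H2A sum was 5.55, 6.05 and 1.40 times as large. The cyclins and kinases of the G1/S list did not share that low level. They summed to 51.1 to 76.8 CPM at 6 dpi, against 15.6 to 29.4 CPM at 1 dpi, 44.4 to 80.2 CPM at 2 dpi and 154 to 238 CPM at 3 dpi. The Hist1 H3 sum was at 9.62 to 14.1 CPM at 6 dpi, against 4.685 to 8.90 CPM at 1 dpi and 40.3 to 122 CPM at 3 dpi, so each 6 dpi library lay above those of 1 dpi and below those of 3 dpi. These ratios are a description across 17 libraries.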

How the data were processed

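CFs were isolated at 1 to 6 dpi and sequenced by bulk MARS-seq in 17 libraries. Per the paper's methods, the authors demultiplexed with bcl2fastq (1.2.4), aligned to mm10 with STAR at default settings, and assigned reads to Ensembl GRCm38.91 genes by featureCounts. What the authors deposited are raw counts per gene, with no normalization. The settings for reads that fit several genes and for strand are not given in the sources used here. The replicates are described as biological.

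Symbols and positions were taken from GENCODE vM21 (GRCm38), and 30934 of 31053 identifiers received a symbol. Of 70 genes with matching names there, 67 are rows of the count table and 63 passed the filter, so 7 were not analysed here. The members, lists and tests were chosen with earlier results of these data known. Counts were tested with edgeR (4.0.16) under R (4.3.3), TMM-normalized, by quasi-likelihood F-tests of 1 model with a term for each of the 6 days over all 17 libraries and Benjamini-Hochberg adjustment over 14030 genes (at least 10 counts in at least 3 libraries). The 5 dpi library, alone on its day, counts in the mean over 3, 4 and 5 dpi, and its replicate number differs between 2 of its labels. The standard error is the log2 fold change divided by the square root of F. CPM are counts scaled to the TMM-normalized library size. Genes named are the 2 with the highest counts of each class, the 15 called over the time course with the largest F, and the largest rise and fall of each comparison, and others are named where a group turns on them. The edgeR script was tested on simulated data.

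The alternatives were DESeq2 (1.42.0), its size factors in edgeR, every gene with at least 1 count, the replicate number as a block, only the days compared, the window without 3 or 5 dpi, and each of 16 libraries left out. For class sums they were raw library totals, every listed histone row, leaving out the most abundant gene and, chosen after seeing the data, the most abundant gene alone and each library left out. Shared words were counted in transcripts with 68 bases, the cycles of read 1. Figures were drawn with matplotlib under Python.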

Additional observations from a re-analysis of the deposited data

Results flagged for a closer look

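At 3 dpi, where there were 4 libraries, one was marked where its gap to the nearest of the others, as a ratio to the range of log2 values, exceeded Dixon's critical value, which chance passes in about 1 of 20 groups. Of 36 measures 9 passed, each through 3 dpi replicate 2 as the highest library. The ratio was 0.899 for the H2A sum, 0.927 for the H4 sum, 0.900 for the Hist1 H2A sum and 0.891 for the sum of all 63 genes. It was 0.875 for Hist1h1e, 0.880 for Hist1h2ac, 0.971 for Hist1h2ao, 0.971 for Hist1h2ap and 0.831 for Hist1h3i. The measures share reads, so these are not 9 separate events. The H2B sum and Hist1h2bc did not pass, at 0.370 and 0.540. In this library the Hist1 H2A sum was 8.43 times the DNA replication sum, against 2.21 to 3.01 times in the other 3 dpi libraries.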

How the results depend on the processing

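Of the 25 named genes, 23 had at least 1 call whose fold change was followed under the alternatives (Hist1h2bc and Hist1h4h had none). Over their 52 calls no direction reversed, 1035 values kept their side of the threshold and 115 fell short of it. Of the counts of genes called, those of the time course and of 3 to 5 over 1 to 2 dpi stayed within 1.5 times of 35 and 36. The count over 6 dpi (17) was 8 without the 3 dpi libraries and 5 to 22 with a library left out. For 2 over 1 dpi (0) it was 12 with every gene of at least 1 count and 9 with only the days compared. For 3 over 2 dpi (19) it was 30 by DESeq2 and 9 to 23 with a library left out. For 4 over 3 dpi (8) it was 15 by DESeq2, 17 with every gene, 0 with only the days compared and 0 to 14 with a library left out. For 6 over 4 dpi (0) it was 3 by DESeq2, 8 with every gene and 0 to 4 with a library left out. The cause was not tested. Among the H1 genes followed, Hist1h1b kept its call in 10 of 22 alternatives, Hist1h1c in 12 of 23 and Hist1h1e in 9 of 22. Hist1h1d was not among those followed.

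The log2 ratio of the class sums at 3 to 5 over 1 to 2 dpi was 1.06 for H1, 3.01 for H2A, 0.57 for H2B, 1.5 for H3 and 0.99 for H4. It was 2.13 for H1 and 1.43 for H2B without the most abundant gene, and 0.23 for H2B with Hist1h2bc alone, since Hist1h1c and Hist1h2bc hold most counts of their classes.

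Samples with the same replicate number deviated together about as little as others on average (mean r = 0.011 over 30 pairs, against −0.005 over 72). The highest r was 0.2 and 0.148. These values gave no clear sign that the numbers pair the libraries, but with so few libraries per day they cannot exclude it. With the replicate block 12 genes were called for 3 over 2 dpi, and for the other comparisons in order 32, 35, 13, 0, 9 and 0. Hist1h1b and Hist1h3i had 0 to 29 and 2 to 192 counts per library, and the effect of depth on their calls was not tested.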

Other observations

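The histone genes were also grouped by their annotated 3′ end. At 3 to 5 over 1 to 2 dpi the median log2 fold change was 1.31 over 23 genes whose transcript ends within 100 bases after the stem-loop, 1.2 over 21 whose transcript runs on further and 2.21 over 19 with no stem-loop in the annotated transcript. Within H2A the medians of these groups were 3.20, 2.85 and 3.76 (8, 3 and 6 genes), and within H4 the values were 0.95, 0.91 and 0.89 (5, 7 and 1 genes). No test was made of these differences. The H2A groups also differ in gene cluster. Besides Hist1 genes, the first holds Hist2h2aa1, Hist2h2aa2 and Hist2h2ac, the second Hist3h2a and the third Hist2h2ab. The part of the cluster in these medians was not tested.

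The single 5 dpi library held the highest H2B sum of the series, 631 CPM, with 258 CPM outside Hist1h2bc, against 108.5 to 171.5 CPM at 3 dpi. It has no replicate among the libraries used here, although the paper also draws on 5 dpi bulk samples from an earlier dataset.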
